A study of Homo sapiens with 21 samples.

Results

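The clustered protocadherins are cell-surface adhesion proteins encoded by 3 neighbouring arrays of genes on human chromosome 5, named PCDHA, PCDHB and PCDHG. They were taken from the gene table as the entries whose symbol begins with PCDHA, PCDHB or PCDHG followed by a digit or by A, B or C, without pseudogene and antisense symbols. That gave 54 genes of 62699, namely 16 PCDHA, 16 PCDHB and 22 PCDHG, all on the plus strand between the start of PCDHA1 at chr5:140786136 and the end of PCDHGC3 at chr5:141512977 (GRCh38). PCDHA14 is annotated as a transcribed unprocessed pseudogene but was kept, because its symbol passed the rule. A further 7 entries of the region were left out by the symbol rule: PCDHB1-AS1, PCDHB17P, PCDHB18P under 2 identifiers, PCDHB19P, PCDHGB8P and PCDHGB9P.

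In the PCDHA and PCDHG arrays each gene has its own large first exon, the variable exon, which carries its own promoter and encodes the extracellular cadherin repeats, and that exon is spliced to short constant exons shared by the whole array and encoding the common intracellular end. PCDHB genes consist of a variable exon alone. Single neurons are known to switch on a few of these promoters, apparently by chance, through binding of CTCF and cohesin at promoter and enhancer sites and through DNA methylation, while the C-type genes PCDHAC1, PCDHAC2, PCDHGC3, PCDHGC4 and PCDHGC5 are used more uniformly. The proteins pair with identical copies on a neighbouring cell, which is best known for self-recognition among the branches of 1 neuron.

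The study measured RNA in islets grown from H1, a human embryonic stem cell line, and harvested at day 18 of differentiation. H1 cells were unedited (WT) or carried the genotype ISL1-/-, PAX6-/- or PDX1-/-, each named for a transcription factor of the pancreatic endocrine lineage. At day 11 every culture received a lentivirus carrying ISL1 with a blue fluorescent protein (the ISL1 vector) or the fluorescent protein alone (the BFP vector), and fluorescent cells were sorted before RNA extraction, so cells of the control groups had been transduced and sorted as well. The 21 libraries formed 8 groups. There were 2 libraries of WT with the BFP vector (replicates 1 and 3), 2 of WT with the ISL1 vector (replicates 1 and 2), 2 of PDX1-/- with the ISL1 vector (replicates 2 and 4) and 3 in each of the other 5 groups. The labels do not give the number of clones behind a genotype or the part of each gene that was deleted, and nothing states which replicates came from separate differentiations, so p-values measure the spread between these libraries. Because RNA came from pooled sorted cells, fewer cells using a gene and less RNA per cell cannot be told apart.

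Library totals ran from 36807615 to 60199880 counts (median 50398068). Transcripts of the targeted genes were still counted in their own knockouts. ISL1 stood at 73.7 to 82.4 CPM, the count scaled to a common library total, in ISL1-/- against 306.0 to 519.0 in WT with the BFP vector, and at 71.6 to 96.8 in ISL1-/- with the ISL1 vector against 337.0 to 361.0 in WT with that vector. The ranges with the BFP and the ISL1 vector overlapped both in ISL1-/- and in WT, so the counts do not separate the vectors by ISL1, and the vector names used here are those of the labels. PAX6 stood at 99.5 to 166.0 in PAX6-/- against 140.0 to 232.0 in WT, and PDX1 at 103.0 to 116.0 in PDX1-/- against 80.0 to 102.0. CHGA, a granule protein of endocrine cells, was at 10300 CPM or more in every library. Of the pluripotency markers POU5F1 and NANOG were near 0, while LIN28A stood at 3.6 to 20.2 CPM and PRDM14 at 1.94 to 39.2 CPM with the BFP vector and at 2.73 to 87.6 CPM with the ISL1 vector. SOX10, which marks neural crest and glia, was near 0. Libraries of 1 group were not all alike: the third replicate of PAX6-/- with the ISL1 vector and the fourth replicate of PDX1-/- with the ISL1 vector had the lowest totals of clustered protocadherin reads, at 139.0 and 82.0 CPM against 213.0 to 422.0 in the other 19 libraries. Of the 42 genes that could be tested, 24 and 29 lay below all 19 other libraries in these 2. How many of all genes did so was not counted, so this is not read as particular to the protocadherins. The 2 libraries also stood apart in mitochondrial reads (3.16% and 3.84% of counts against 1.28% to 1.93%) and in duct markers (3470 and 3050 summed CPM against 554.0 to 1730). The PDX1-/- library had INS at 25600 CPM, against 164.0 in the other library of its group. The part of these differences in the protocadherin values was not tested. Results that rest on these libraries are given with and without them.

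The promoters show what the genes of an array have in common and where they differ, so those of the genes that the results turn on are printed here. RefSeq (GRCh38.p14) gave promoter windows, from 250 bases before to 50 bases after the annotated start, for 47 of the 54 genes, 52 windows in all. PCDHA3, PCDHA13, PCDHA14, PCDHB6, PCDHB11, PCDHGA12 and PCDHGC5 had none in the table. The 4 letters CGCT are the core of a sequence element long known in these promoters. The letters alone are common, on either strand in 70.0% of the windows of all genes. A capitalised CGCT therefore need not be part of that element, and whether it is was not tested. Each line below gives 60 bases of the plus strand, 5′ to 3′, with each CGCT on that strand in capitals. The first set holds PCDHA genes, among them PCDHA5 and PCDHA7, which differed between genotypes, and PCDHA12, the gene with the highest level per length of its array.
PCDHA4, chr5:140806967-140807026: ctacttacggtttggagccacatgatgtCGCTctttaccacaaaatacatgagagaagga
PCDHA5, chr5:140821530-140821589: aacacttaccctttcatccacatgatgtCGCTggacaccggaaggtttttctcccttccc
PCDHA7, chr5:140834160-140834219: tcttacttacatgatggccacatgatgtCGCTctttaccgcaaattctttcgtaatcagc
PCDHA12, chr5:140875232-140875291: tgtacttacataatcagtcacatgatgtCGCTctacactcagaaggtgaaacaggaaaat
The second set holds PCDHB2, the second of its array by level per length, and 4 neighbours from the far end of the array that lay higher in PDX1-/-.
PCDHB2, chr5:141094532-141094591: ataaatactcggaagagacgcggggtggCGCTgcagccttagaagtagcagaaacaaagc
PCDHB16, chr5:141182298-141182357: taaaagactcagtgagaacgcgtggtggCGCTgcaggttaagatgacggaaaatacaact
PCDHB9, chr5:141187062-141187121: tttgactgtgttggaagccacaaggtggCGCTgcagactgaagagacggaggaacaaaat
PCDHB12, chr5:141208631-141208690: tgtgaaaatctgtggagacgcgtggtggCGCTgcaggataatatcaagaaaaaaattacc
PCDHB13, chr5:141213853-141213912: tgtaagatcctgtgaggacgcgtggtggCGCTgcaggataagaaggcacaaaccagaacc
The third set holds PCDHG genes, among them PCDHGA10 and PCDHGB7, which lay on opposite sides of the other genotypes in ISL1-/-.
PCDHGB4, chr5:141387605-141387664: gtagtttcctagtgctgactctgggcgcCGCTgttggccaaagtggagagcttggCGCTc
PCDHGA10, chr5:141412919-141412978: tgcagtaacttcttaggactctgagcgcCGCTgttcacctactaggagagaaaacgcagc
PCDHGB6, chr5:141407936-141407995: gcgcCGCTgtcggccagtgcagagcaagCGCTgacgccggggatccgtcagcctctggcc
PCDHGB7, chr5:141417595-141417654: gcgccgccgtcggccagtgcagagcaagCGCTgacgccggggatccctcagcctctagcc
The last set holds 2 C-type genes. Their printed bases, like those of PCDHGB6 and PCDHGB7, lack the longer words described next.
PCDHAC2, chr5:140966407-140966466: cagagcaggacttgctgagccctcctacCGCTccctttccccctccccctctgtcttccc
PCDHGC3, chr5:141475887-141475946: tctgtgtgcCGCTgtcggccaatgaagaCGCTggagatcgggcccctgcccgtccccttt
CGCT stood on the gene's strand in 51 of the 52 windows (98.1%), against 54.3% of 35116 windows of all genes, and on either strand in 98.1% against 70.0%. It stood 30 to 90 bases before the start in 80.8% of the protocadherin windows and in 18.0% of all windows. PCDHA9 was the only gene whose window lacked CGCT on either strand. The PCDHB8 window had no CGCT before the start on the gene's strand. A longer word read off these sequences, GATGTCGCT, stood in 9 of the 13 PCDHA windows and in 0.105% of all windows on either strand. GGTGGCGCT stood in 13 of the 14 PCDHB windows and in 0.501% of all. GCCGCTGTT stood in 7 of the 25 PCDHG windows and in 0.322% of all, and GTCGCTGTT in 6 of the 25 and in 0.154% of all. The 3 arrays did not share these words. All 4 words contain CGCT. They were chosen from the sequences they describe, so the counts are a description. PCDHGB6 and PCDHGB7, both of the B type, matched at 57 of the 60 printed bases. Counted from 1 at the printed 5′ end, the substitutions from PCDHGB6 to PCDHGB7 were T8C, G47C and G57A, and T8C falls in the first CGCT of PCDHGB6.

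The deposited counts do not say on which exon a read lay. The table lists 3 constant exons under 15 PCDHA genes (59, 89 and 2721 bases) and 3 under 22 PCDHG genes (59, 89 and 2029 bases), and reads there lie on many genes at once. Genes with no exon base free of other genes on either strand had no count in any library in 93.0% of 2633 cases, against 16.0% of 52004 genes with 200 or more such bases. Levels per length therefore used the exon length free of other genes on either strand.

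Most of the signal came from a few genes. By median CPM over the 21 libraries, 26 of the 54 genes reached 1 CPM and 9 reached 10 CPM. PCDHA4, PCDHB5, PCDHGB6, PCDHB2 and PCDHGB4 together held 46.6% to 61.0% of the cluster's reads (median 55.1%). Per kilobase of free exon, PCDHB5 led with a median of 13.1 CPM per kb, followed by PCDHB2 at 10.2, PCDHA12 at 5.85, PCDHGB4 at 5.71 and PCDHGB6 at 5.45 CPM per kb. The next in order were PCDHA2 at 4.33, PCDHA4 at 4.01 and PCDHA11 at 3.53 CPM per kb. The ranges over libraries of each gene and the next in this order overlapped. By whole exon length, PCDHA12 fell to 2.12 and PCDHGB4 to 2.04 CPM per kb, behind PCDHGB6 and PCDHA4.

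The 12 genes that were too low to test lay in all 3 arrays. PCDHA1 and PCDHA14 had no count in any library, but they have 7 and 0 exon bases free of other genes, so these zeros are not read as a low level. PCDHB8, PCDHGA1, PCDHGA3, PCDHGA4, PCDHGA5, PCDHGB3, PCDHGA6, PCDHGA7, PCDHGA9 and the C-type gene PCDHGC5 had between 3 and 78 counts over all 21 libraries together. Of the PCDHGA genes, PCDHGA10 alone reached a median of 1 CPM, and PCDHGA1 to PCDHGA9 other than PCDHGA2 and PCDHGA8 stayed under the test's count filter. The 42 genes tested were 14 PCDHA, 15 PCDHB and 13 PCDHG.

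**Figure D1:**
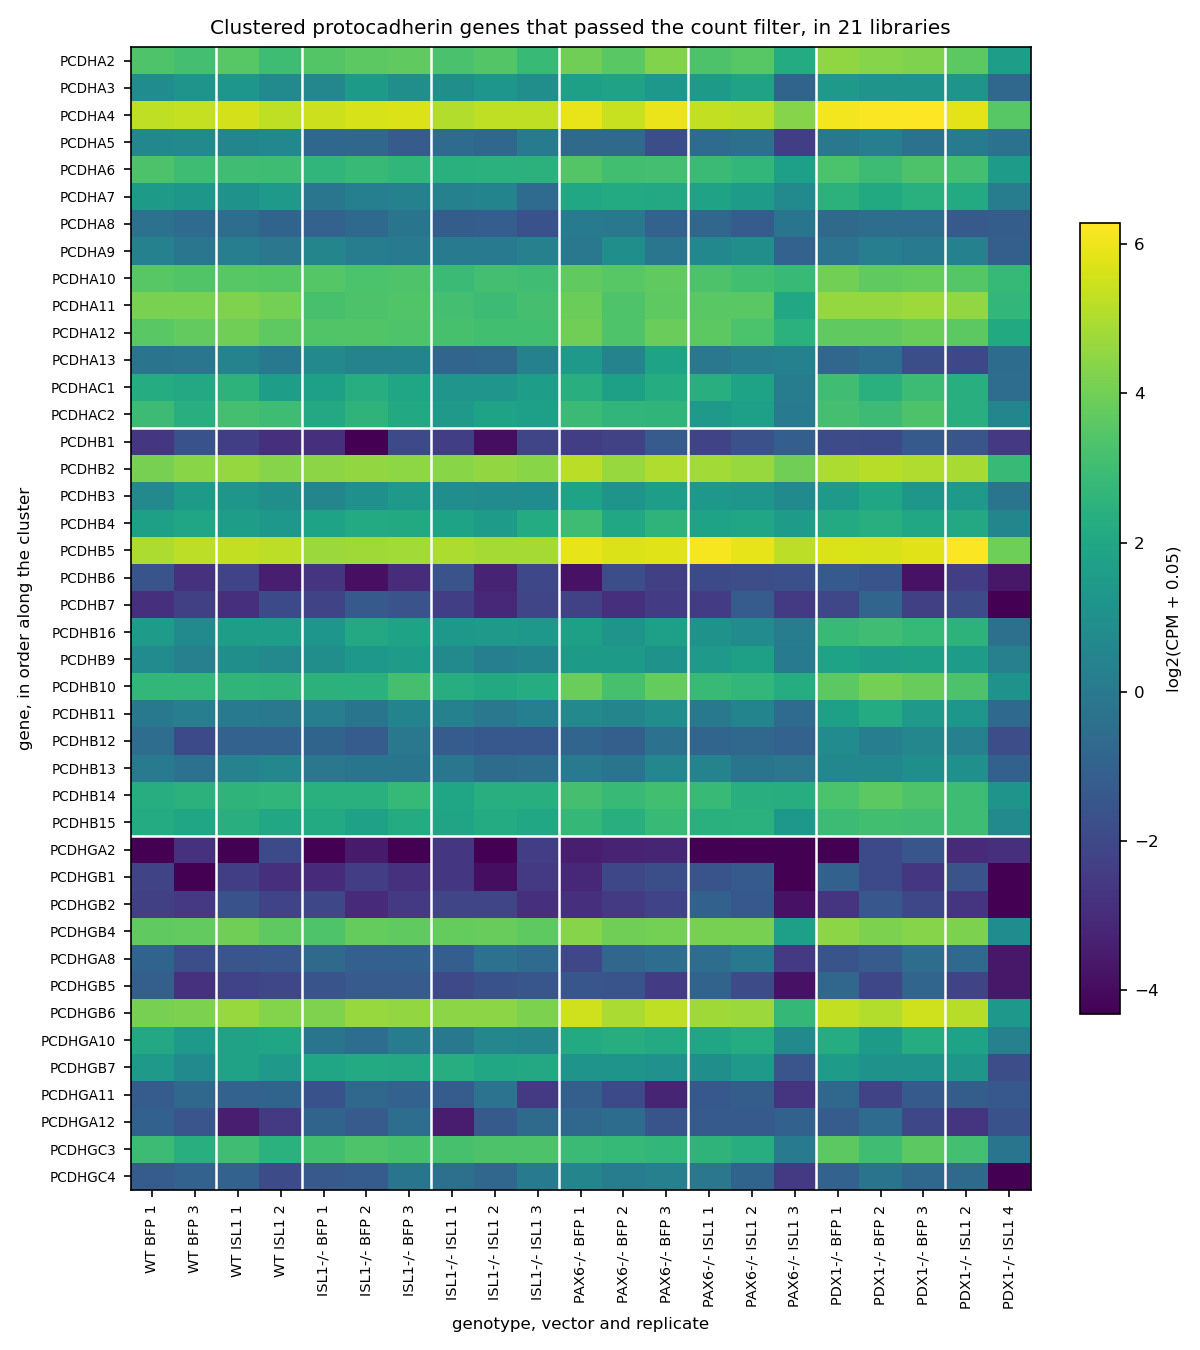
Levels of the 42 tested genes (rows, in order along the cluster) in the 21 libraries (columns, by genotype, vector and replicate), as log2 CPM in colour. PCDHA4, PCDHB2, PCDHB5, PCDHGB4 and PCDHGB6 are bright in nearly every column, and the columns of PAX6-/- ISL1 vector replicate 3 and PDX1-/- ISL1 vector replicate 4 are darker than the rest.

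The order of the genes was similar between libraries. Over the 42 genes, the Spearman correlation of log2 CPM between 2 libraries of 1 group had a median of 0.98 over the 15 pairs without the 2 libraries named above, and a median of 0.974 between vectors within a genotype (22 pairs). Between genotypes it had a median of 0.957 and a range of 0.932 to 0.98 (134 pairs). Pairs with 1 of the 2 low libraries had medians of 0.915 within a group (lowest 0.913), 0.93 between vectors and 0.906 between genotypes (lowest 0.868), and for the 13 PCDHG genes alone the lowest value between genotypes was 0.601. These are descriptions over genes that share a library. The number of genes in effective use, the exponential of the Shannon entropy of the shares, was 6.57 to 8.38 in PCDHA, 4.74 to 7.3 in PCDHB and 3.85 to 5.31 in PCDHG over the 19 libraries. The 26 genes of at least 1 CPM, each as its share of its array, placed 19 of the 21 libraries nearest to the mean of their own genotype's other libraries on the log2 scale, with the 2 low libraries kept out of the means, the exceptions being WT BFP vector replicate 3, nearest to PAX6-/-, and PDX1-/- ISL1 vector replicate 4, nearest to WT.

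Levels summed over an array also differed in their means between genotypes. With the BFP vector, all PCDHA genes together had 119.0 CPM ± 2.83 (SD, n = 2) in WT, 114.0 ± 6.66 (n = 3) in ISL1-/-, 142.0 ± 22 (n = 3) in PAX6-/- and 183.0 ± 7.55 (n = 3) in PDX1-/-. All PCDHB genes together had 144.0 ± 7.0 CPM in PDX1-/-, 132.0 ± 16.7 in PAX6-/-, 80.9 ± 6.96 in ISL1-/- and 81.7 ± 6.36 in WT. All PCDHG genes together had 79.6 ± 10.7 CPM in PDX1-/-, 73.0 ± 9.86 in PAX6-/-, 51.7 ± 6.48 in ISL1-/- and 45.0 ± 3.18 in WT. The 3 PDX1-/- libraries lay above both WT libraries in each array, and so did the PAX6-/- libraries in PCDHB and PCDHG, while ISL1-/- and WT overlapped in each array. The sums were not tested.

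**Figure D2:**
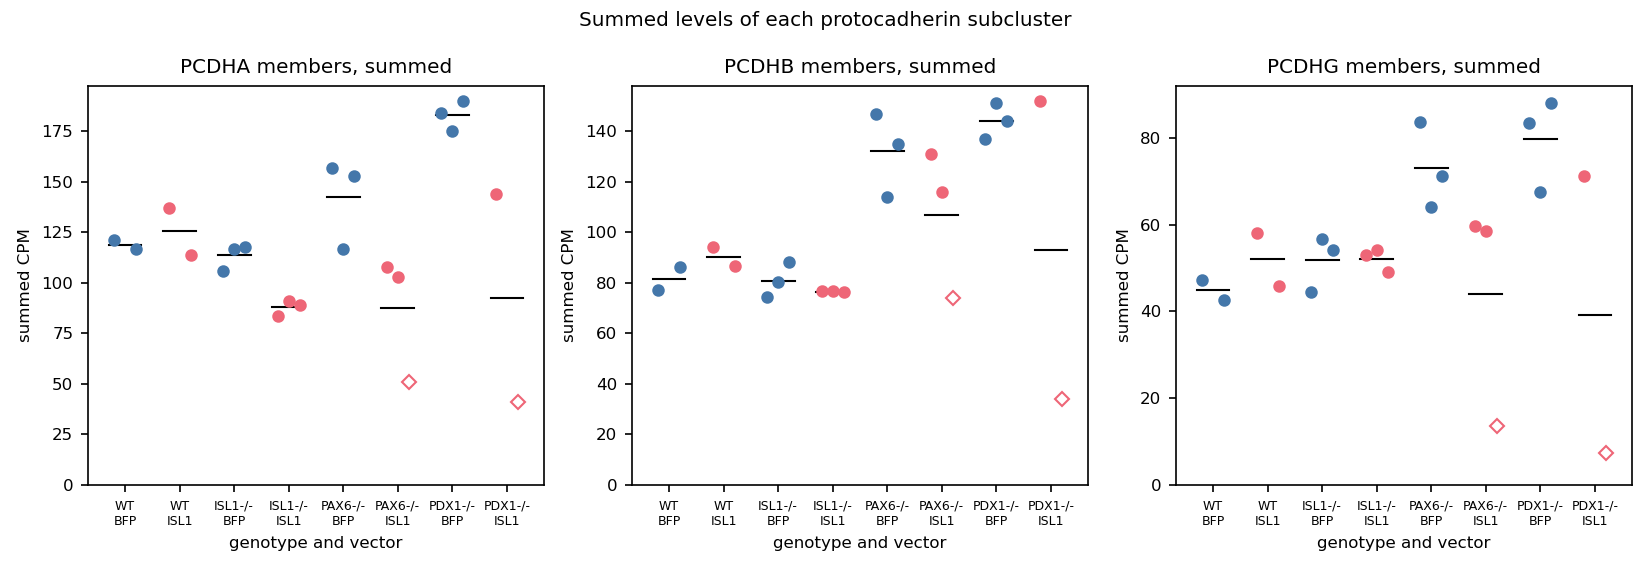
Summed CPM (vertical axes, from 0) of the PCDHA, PCDHB and PCDHG genes in each library, by genotype and vector. Blue points are BFP vector libraries, red points ISL1 vector libraries, open diamonds PAX6-/- replicate 3 and PDX1-/- replicate 4 with the ISL1 vector, and bars the group means; the open diamonds lie at the bottom of each panel.

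The first comparison asked which genes differ when ISL1 is knocked out, with the BFP vector. PCDHGA10 and PCDHA5 were lower than in WT, and these were the 2 of 42 called (edgeR's quasi-likelihood test, Benjamini-Hochberg adjusted p under 0.05 over 25884 genes), where 5.59% of all genes were called and 3.92% were called lower. The median log2 fold change was 0.03 over the 42 genes and 0.02 over all genes. By array, 9 of 14 PCDHA genes, 6 of 15 PCDHB genes and 5 of 13 PCDHG genes had a log2 fold change below 0. Without the 2 low libraries, which belong to other groups and act here through the shared estimate of spread, 7 of 43 genes were called, 2 higher and 5 lower, against 23.5% of all genes (11.3% higher and 12.2% lower).

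PCDHGA10 encodes a γ-protocadherin of the A type. It stood at 0.814, 0.659 and 1.07 CPM in ISL1-/- BFP vector libraries and at 0.94, 1.45 and 1.35 CPM in ISL1-/- ISL1 vector libraries. In WT it stood at 4.22 and 2.6 CPM with the BFP vector and at 3.42 and 3.71 CPM with the ISL1 vector. In PAX6-/- it stood at 4.4, 4.86 and 4.39 CPM with the BFP vector and at 3.72, 4.69 and 1.59 CPM with the ISL1 vector, and in PDX1-/- at 4.69, 2.7 and 4.68 CPM and at 3.51 and 1.22 CPM. All 6 ISL1-/- libraries lay below all 13 libraries of other genotypes outside the 2 low ones, and the 2 low libraries fell at or near their upper edge. With the BFP vector, PCDHGA10 fell by 2.00 ± 0.44 (log2, SE) against WT (adjusted p = 0.0123), and the differences were -2.42 ± 0.42 from PAX6-/- (0.00289) and -2.24 ± 0.42 from PDX1-/- (0.00406). The call against WT was lost without ISL1-/- replicate 1 (adjusted p = 0.0526), ISL1-/- replicate 2 (0.057) or WT replicate 1 (0.177). Both other calls were kept in each of 16 alternatives. Its difference from WT with the ISL1 vector was -1.52 ± 0.44 (adjusted p = 0.0632), and -1.53 ± 0.28 (0.00111) without the 2 low libraries.

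PCDHA7, a PCDHA gene of the middle of its array, had the same split. In ISL1-/- it stood at 0.85, 1.13 and 1.23 CPM with the BFP vector and at 1.2, 1.31 and 0.612 CPM with the ISL1 vector. In WT it stood at 2.73 and 2.39 CPM and at 2.06 and 2.54 CPM, in PAX6-/- at 3.9, 4.41 and 4.24 CPM and at 3.37, 2.89 and 1.57 CPM, and in PDX1-/- at 5.53, 4.36 and 5.33 CPM and at 4.43 and 1.04 CPM. The ISL1-/- libraries lay below the 13 others, without overlap. With the BFP vector it fell by 2.24 ± 0.42 against PDX1-/- (adjusted p = 0.00412), a call kept in each of 16 alternatives, and the difference of -1.97 ± 0.41 from PAX6-/- (0.0129) was a call lost without ISL1-/- replicate 1 (0.0842) or 2 (0.0601). Against WT the difference of -1.26 ± 0.45 did not pass (0.118), and without the 2 low libraries it was -1.24 ± 0.27 (0.00261).

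PCDHGB7 lay the other way. It stood at 3.72, 4.38 and 4.18 CPM in ISL1-/- with the BFP vector and at 4.85, 3.92 and 4.12 CPM with the ISL1 vector, against 1.63 to 3.38 CPM in the 13 libraries of other genotypes. Its difference from WT with the BFP vector was 0.97 ± 0.67 (adjusted p = 0.477), and 0.98 ± 0.23 (0.0047) without the 2 low libraries. PCDHGA10 and PCDHGB7 are direct neighbours, at chr5:141412987-141512975 and chr5:141417645-141512975. The ratio of PCDHGA10 to PCDHGB7 in CPM was 0.15 to 0.369 in the 6 ISL1-/- libraries, 1.01 to 2.18 in the 13 others and 5.43 and 5.13 in the 2 low libraries. PCDHGB7 was singled out after its values were seen. The printed promoter of its near twin PCDHGB6 differs from that of PCDHGB7 at 3 bases. PCDHGB6 stood at 18.0 to 25.1 CPM in ISL1-/- and at 17.3 to 25.3 CPM in WT, within the same range. With the BFP vector it stood at 30.9 to 45.8 CPM in PAX6-/- and at 33.0 to 45.3 CPM in PDX1-/-. Both ranges lay above the 18.8 to 25.1 CPM of ISL1-/- with that vector. With the ISL1 vector and the low libraries included, PAX6-/- (6.63 to 27.4 CPM) and PDX1-/- (2.49 to 35.5) overlapped with ISL1-/- (18.0 to 21.9).

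Over both vectors and without the 2 low libraries, 3 of the 42 genes had all 6 ISL1-/- libraries below all 13 others, where 0.908% of all genes did, and 1 had them above, where 0.719% did. The third that lay below was PCDHB5, at 25.7 to 31.2 CPM in ISL1-/- and 31.5 to 74.9 CPM elsewhere, so that the groups nearly touched. PCDHA5 and PCDHA11 followed in the comparison with WT. PCDHA11 stood at 9.15, 9.95 and 10.6 CPM in ISL1-/- and 17.8 and 17.6 CPM in WT with the BFP vector, and at 8.53, 7.7 and 8.93 CPM against 18.6 and 16.8 CPM with the ISL1 vector. Its difference from WT was -0.84 ± 0.42 (adjusted p = 0.285), and -0.82 ± 0.14 (0.000453) without the 2 low libraries. It passed against PDX1-/- with the BFP vector (-1.34 ± 0.38, adjusted p = 0.0497), a call lost without any 1 of the 6 libraries compared (0.102 to 0.179).

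**Figure D3:**
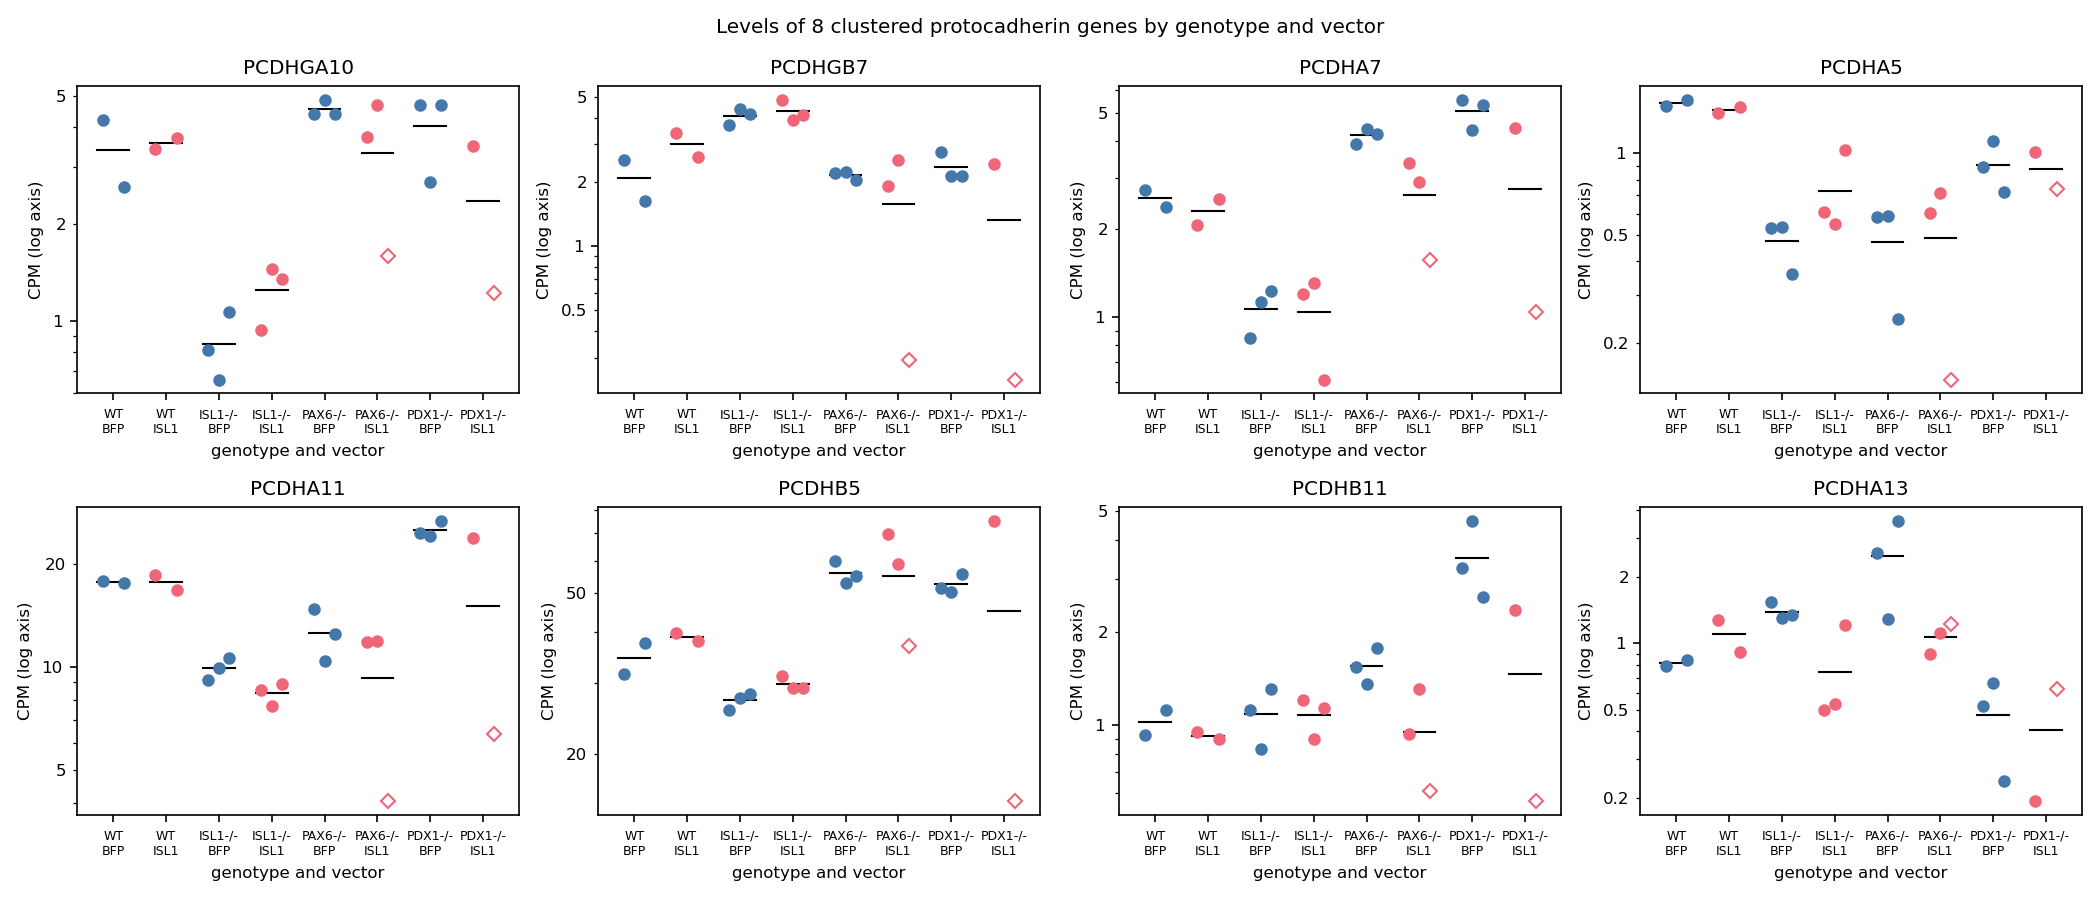
CPM on log axes of PCDHGA10, PCDHGB7, PCDHA7, PCDHA5, PCDHA11, PCDHB5, PCDHB11 and PCDHA13 in each library, by genotype and vector, with blue points for BFP vector libraries, red for ISL1 vector libraries, open diamonds for PAX6-/- replicate 3 and PDX1-/- replicate 4 with the ISL1 vector, and bars for group means. PCDHGA10 and PCDHA7 are low and PCDHGB7 high in the 6 ISL1-/- libraries, PCDHA5 is highest in the 4 WT libraries, and PCDHB11 is highest in the PDX1-/- libraries other than replicate 4.

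PCDHA5, at 7 to 71 counts per library, lay higher in the WT libraries than in those of the edited lines. It stood at 1.49 and 1.57 CPM in WT with the BFP vector and at 1.41 and 1.48 CPM with the ISL1 vector. In ISL1-/- it stood at 0.531, 0.537 and 0.358 CPM and at 0.608, 0.549 and 1.03 CPM, in PAX6-/- at 0.581, 0.589 and 0.246 CPM and at 0.601, 0.711 and 0.147 CPM, and in PDX1-/- at 0.893, 1.11 and 0.721 CPM and at 1.01 and 0.741 CPM. All 4 WT libraries lay above the others, which was so for 1 of the 42 genes and for 4.69% of all genes. With the BFP vector its difference from WT was -0.75 ± 0.48 in PDX1-/- (adjusted p = 0.4), -1.69 ± 0.48 in ISL1-/- (0.0489) and -1.69 ± 0.49 in PAX6-/- (0.0496). These comparisons share the 2 WT libraries. Both calls were lost when any 1 of the 5 libraries compared was left out, with adjusted p of 0.0992 to 0.222 in ISL1-/- and 0.0717 to 0.228 in PAX6-/-.

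The PAX6-/- comparison with the BFP vector called PCDHA5 alone, 1 of 42 genes, where 5.51% of all genes were called and 3.26% were called lower. The median log2 fold change was 0.35 over the 42 genes against 0.03 over all genes, and 35 of the 42 had a fold change above 0, among them 14 of the 15 PCDHB genes. Leaving out the 2 low libraries, 14 of 43 genes were called, 12 higher and 2 lower, against 23.5% of all genes (11.7% higher and 11.9% lower). PCDHB5 was among them. It stood at 60, 52.9 and 54.9 CPM in PAX6-/- against 31.5 and 37.5 CPM in WT, a difference of 0.70 ± 0.41 (adjusted p = 0.387) in the full fit and 0.69 ± 0.11 (0.000327) without the 2 low libraries. PCDHA13 stood at 2.57, 1.29 and 3.56 CPM in PAX6-/-, at 0.791 and 0.846 CPM in WT and at 0.519, 0.661 and 0.24 CPM in PDX1-/-, so that no PAX6-/- library overlapped with either. Against PDX1-/- it was higher by 2.37 ± 0.47 (adjusted p = 0.00832), the 1 gene of 42 called in that comparison, where 3.04% of all genes were called and 1.52% were called higher. That call was lost without PDX1-/- replicate 3 (0.0596). In that comparison 6 genes were called without the 2 low libraries, against 16.3%. No gene had all PAX6-/- libraries of both vectors above or below the other genotypes, where 0.834% and 0.498% of all genes did.

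In PDX1-/- with the BFP vector the genes lay higher than in WT, in the PCDHB array among others. Of the 42 genes 37 had a fold change above 0, among them all 15 tested PCDHB genes, 12 of 13 PCDHG genes and 10 of 14 PCDHA genes. The median log2 fold change was 0.59 over the 42 genes, 0.96 over PCDHB and 0.03 over all genes. PCDHB11 alone was called, where 9.68% of all genes were called and 4.03% were called higher. It stood at 3.26, 4.61 and 2.62 CPM in PDX1-/- and at 0.923 and 1.12 CPM in WT, higher by 1.78 ± 0.47 (adjusted p = 0.023), and the call was lost without PDX1-/- replicate 2 (0.084), WT replicate 1 (0.232) or WT replicate 3 (0.119). Without the 2 low libraries 17 of 43 genes were called, all of them higher, where 27.6% of all genes were called and 13.5% were called higher. DESeq2 called 5 of the genes, and leaving out PDX1-/- ISL1 vector replicate 4 alone gave 10. The shares of all genes called in these settings are not given here.

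The 8 genes from PCDHB16 to PCDHB15 lie next to each other at chr5:141182387-141249365, and their log2 fold changes between PDX1-/- and WT were 0.88 to 1.78 with a median of 1.15. For each of the 8, the 3 PDX1-/- libraries lay above both WT libraries, as was so for 27.0% of all genes. All 8 were called without the 2 low libraries. The 7 tested genes from PCDHB1 to PCDHB8, at chr5:141051374-141180539, had fold changes of 0.2 to 1.26 with a median of 0.49, and 4 of them had all PDX1-/- libraries above both WT libraries. Of the 7, 2 were called without the 2 low libraries. The ranges of the stretches overlapped. No test compared the 2 stretches, which were set out after the values were seen. PCDHB16 stood at 7.1, 8.18 and 6.86 CPM in PDX1-/- and at 2.81 and 1.57 CPM in WT, a difference of 1.74 ± 0.56 (adjusted p = 0.0566). PCDHB9 stood at 3.51, 3.07 and 3.19 CPM against 1.69 and 1.18 CPM, a difference of 1.18 ± 0.42 (0.0888).

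With both vectors and without the 2 low libraries, 6 of the 42 genes had all 4 PDX1-/- libraries above the 15 libraries of other genotypes, where 1.22% of all genes did. These were PCDHA11 (23.8 to 26.6 CPM against 7.7 to 18.6), PCDHB16 (5.82 to 8.18 against 1.57 to 4.14), PCDHB11 (2.36 to 4.61 against 0.832 to 1.78), PCDHB12 (1.11 to 1.7 against 0.212 to 0.902), PCDHB13 (1.48 to 1.98 against 0.615 to 1.46) and PCDHB15 (7.6 to 8.4 against 3.34 to 7.13). PCDHB13 and PCDHB15 nearly touched the other genotypes. The PDX1-/- ISL1 vector replicate that was left out had lower values of all 6, at 6.37 CPM for PCDHA11 and 0.711 CPM for PCDHB16.

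The ISL1-/- libraries were also compared with those of the other edited lines, with the BFP vector. ISL1-/- against PAX6-/- called PCDHA7 and PCDHGA10, 2 of 42 genes, both lower in ISL1-/-, where 2.46% of all genes were called and 1.7% were called lower, and 9 of 43 without the 2 low libraries, where 8.74% were. ISL1-/- against PDX1-/- called PCDHA7, PCDHGA10, PCDHB11 and PCDHA11, 4 of 42 genes and all lower in ISL1-/-, where 5.07% of all genes were called and 2.34% were called lower. PCDHB11 was lower there by 1.69 on the log2 scale (-1.69 ± 0.40, adjusted p = 0.019), a call lost without ISL1-/- replicate 1 (0.0812), ISL1-/- replicate 2 (0.101) or PDX1-/- replicate 2 (0.104). All 15 PCDHB genes had a fold change below 0, and the median over the 42 genes was -0.70 against -0.02 over all genes. Leaving out the 2 low libraries, 21 of 43 genes were called, against 21.7% of all genes. The joint test of any difference among the 4 genotypes called PCDHA5, PCDHA7, PCDHA13, PCDHB11 and PCDHGA10, 5 of 42 genes, where 13.5% of all genes were called, and 23 of 43 without the 2 low libraries, where 40.7% were.

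With the ISL1 vector, in other libraries, fewer genes passed. ISL1-/- against WT called none of the 42 by edgeR (7 at an unadjusted p under 0.05; 2 by DESeq2), where 3.72% of all genes were called, and 10 of 43 without the 2 low libraries, all lower, where 19.5% were and 11.2% were lower. PAX6-/- against WT called PCDHAC2 alone, where 3.56% of all genes were called and 2.3% were called lower, and 3 of 43 without the 2 low libraries, where 12.2% were. PDX1-/- against WT called none by edgeR (2 at an unadjusted p under 0.05; 0 by DESeq2), where 0.634% of all genes were called, and 3 without the 2 low libraries, where 6.66% were. In that last comparison the median log2 fold change over the clustered protocadherins was -0.27 in the full fit, against 0.1 over all genes. Without the 2 low libraries, which left PDX1-/- replicate 2 alone in its group, it was 0.4, against 0.01 over all genes.

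Without the 2 low libraries, the genotype differences with the BFP vector and those with the ISL1 vector had the same sign for 28 of 42 genes in ISL1-/-, 26 in PAX6-/- and 33 in PDX1-/-. With all libraries the numbers were 29, 21 and 18. Over the 26 genes of at least 1 CPM, the Spearman correlation between the 2 sets of differences was 0.75, 0.68 and 0.73, and 0.75, 0.73 and 0.58 with all libraries. With all libraries no gene was called with both vectors. The libraries behind the 2 sets are separate, and the points share them within a set. Neither these values nor the counts called with both vectors were made over all genes. They are not read as particular to the protocadherins. Without the 2 low libraries, 5 of the 7 genes called with the BFP vector in ISL1-/- were called with the ISL1 vector too. All had the same direction, namely PCDHA5, PCDHA7, PCDHA11, PCDHB5 and PCDHGA10. In PAX6-/- these were PCDHA11 and PCDHB5, of 14 called with the BFP vector, and in PDX1-/- PCDHB5 and PCDHB11, of 17.

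**Figure D4:**
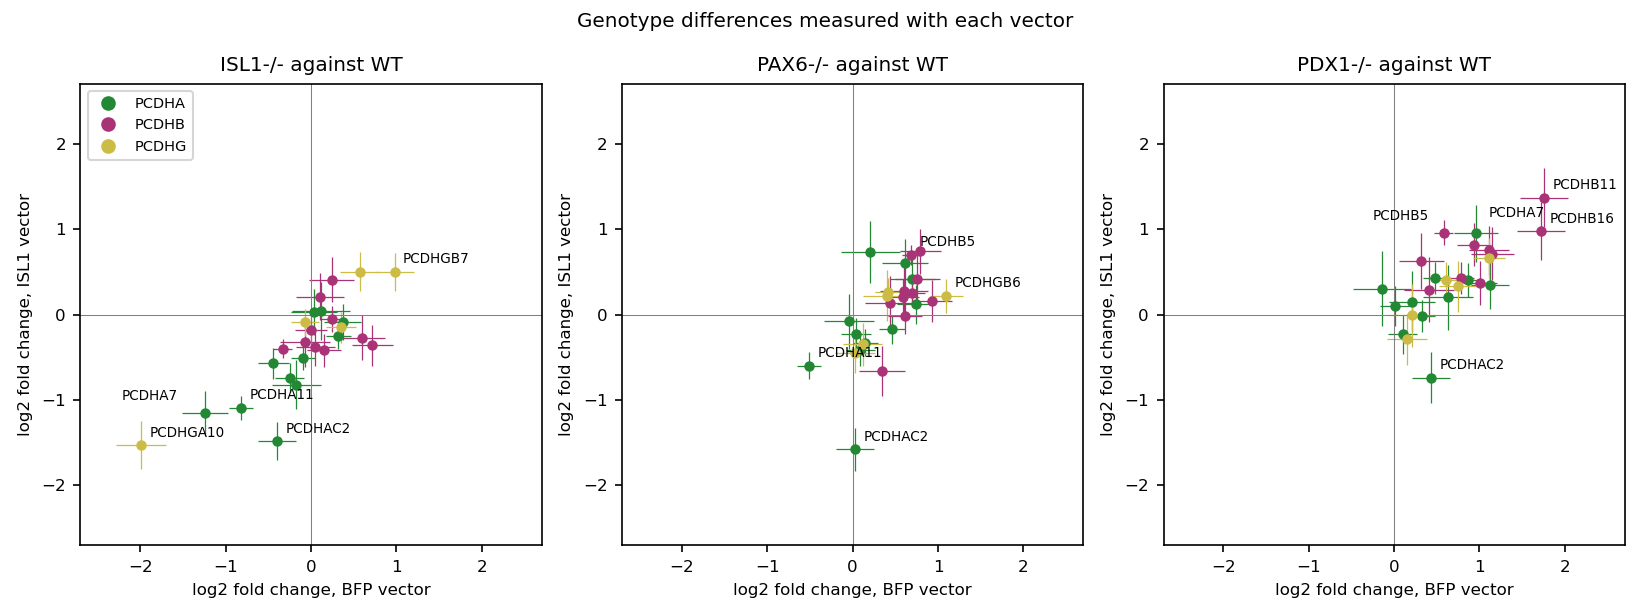
Log2 fold change between each knockout and WT with the BFP vector (horizontal axis) and with the ISL1 vector (vertical axis) for the 26 genes with a median of at least 1 CPM, without PAX6-/- replicate 3 and PDX1-/- replicate 4 of the ISL1 vector; points are coloured by array and bars are standard errors. PCDHGA10, PCDHA7 and PCDHA11 lie at the lower left for ISL1-/-, PCDHB11 and PCDHB16 at the upper right for PDX1-/-, and PCDHAC2 lies below 0 on the vertical axis in all 3 panels.

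Within a genotype, the vector made few differences that passed the test. In WT none of the 42 genes was called by edgeR (1 at an unadjusted p under 0.05; 0 by DESeq2), where 0.027% of all genes were, and none of 43 without the 2 low libraries, where 1.32% were. In ISL1-/- none was called (2 at an unadjusted p under 0.05; 0 by DESeq2), where 0.382% of all genes were, and 1 without the 2 low libraries, where 4.93% were. In PAX6-/- none was called (7 at an unadjusted p under 0.05; 1 by DESeq2), where 0.355% of all genes were, and 2 without the 2 low libraries, where 4.97% were. With the replicate number as a block 2 were called in PAX6-/-, PCDHAC2 (-1.63, adjusted p = 0.0137) and PCDHB10 (-1.01, 0.0375). In PDX1-/- PCDHA2 and PCDHAC2 were lower with the ISL1 vector, 2 of 42 genes, where 12.5% of all genes were called and 4.33% were called lower. No gene passed the test of whether the vector difference in a knockout differed from that in WT. By edgeR 0, 2 and 4 genes had an unadjusted p under 0.05 in ISL1-/-, PAX6-/- and PDX1-/-, DESeq2 called 0 in each, and 0.00386%, 0.0% and 1.19% of all genes were called.

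Those last calls did not hold when 1 library was left out. PCDHA2 stood at 23.1, 20.3 and 18.8 CPM in PDX1-/- with the BFP vector and at 12.2 and 3.02 CPM with the ISL1 vector, the lower value being that of replicate 4. The difference was -1.44 ± 0.45 (adjusted p = 0.0455), and -0.76 (0.457) without replicate 4. In this comparison 41 of the 42 genes had a fold change below 0, with a median of -0.82 against 0.13 over all genes. Without replicate 4 no gene was called, and without replicate 2, which left replicate 4 alone in its group, 31 were. Leaving out both low libraries gave a median of -0.17 and 1 call, where 8.92% of all genes were called. Without 1 PDX1-/- BFP library at a time no gene was called either.

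The C-type genes are considered apart because they are known to be used more uniformly in neurons. PCDHAC2 stood at 7.76 and 5.08 CPM in WT with the BFP vector and at 8.82 and 7.96 CPM with the ISL1 vector. In ISL1-/- it stood at 4.21, 5.94 and 4.31 CPM and at 2.52, 3.46 and 3.13 CPM, in PAX6-/- at 7.53, 6.21 and 6.09 CPM and at 2.56, 3.11 and 0.944 CPM, and in PDX1-/- at 8.95, 7.63 and 9.86 CPM and at 5.01 and 1.42 CPM. In each of the 3 knockouts every ISL1 vector library lay below every BFP vector library, and in WT both ISL1 vector libraries lay above. The same was so of 11.9%, 8.44% and 17.2% of all genes in the ISL1, PAX6 and PDX1 knockouts, and of 20.8% in WT. The vector difference was -0.67 ± 0.39 in ISL1-/- (adjusted p = 0.821), -1.58 ± 0.40 in PAX6-/- (0.125), -1.44 ± 0.46 in PDX1-/- (0.0485) and 0.38 ± 0.48 in WT (1.0). It was, without the 2 low libraries, -1.23 ± 0.23 in PAX6-/- (0.00708) and -0.79 ± 0.29 in PDX1-/- (0.106). PCDHAC2 was also, with the ISL1 vector, lower than in WT by 1.92 on the log2 scale in PAX6-/- (-1.92 ± 0.44, adjusted p = 0.0194), a call lost without WT replicate 1 (0.148) or 2 (0.105), and the difference was -1.46 ± 0.43 in ISL1-/- (0.0693).

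None of the other C-type genes passed a test in the full fit. PCDHAC1 stood at 4.66 and 4.23 CPM in WT, 3.08, 4.78 and 3.87 CPM in ISL1-/-, 5.1, 3.25 and 4.75 CPM in PAX6-/- and 8.04, 5.27 and 7.67 CPM in PDX1-/- with the BFP vector. ISL1 vector libraries had 5.73 and 3.06 CPM, at 2.25, 2.29 and 3.01 CPM, at 4.91, 3.56 and 1.07 CPM and at 5.03 and 0.652 CPM in the same order. PCDHGC3 was the highest C-type gene, at 7.63 and 4.93 CPM in WT, 8.34, 10.3 and 9.02 CPM in ISL1-/-, 7.37, 6.89 and 6.49 CPM in PAX6-/- and 12.1, 8.09 and 12.1 CPM in PDX1-/- with the BFP vector. Its 3 ISL1-/- and 3 PDX1-/- libraries lay above both WT libraries, with differences of 0.55 ± 0.65 and 0.77 ± 0.65 (adjusted p = 0.73 and 0.562). ISL1 vector libraries had 8.25 and 5.38 CPM in WT, at 9.2, 9.87 and 10.1 CPM in ISL1-/-, at 5.92, 4.9 and 1.01 CPM in PAX6-/- and at 8.54 and 0.83 CPM in PDX1-/-. PCDHGC4 was low, at 0.374 and 0.453 CPM in WT and 1.39, 1.05 and 1.17 CPM in PAX6-/- with the BFP vector, which did not overlap, with a difference of 1.54 ± 0.82 (adjusted p = 0.33), and 1.54 ± 0.46 (0.0218) without the 2 low libraries. PCDHGC5 had 27 counts in all.

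**Figure D5:**
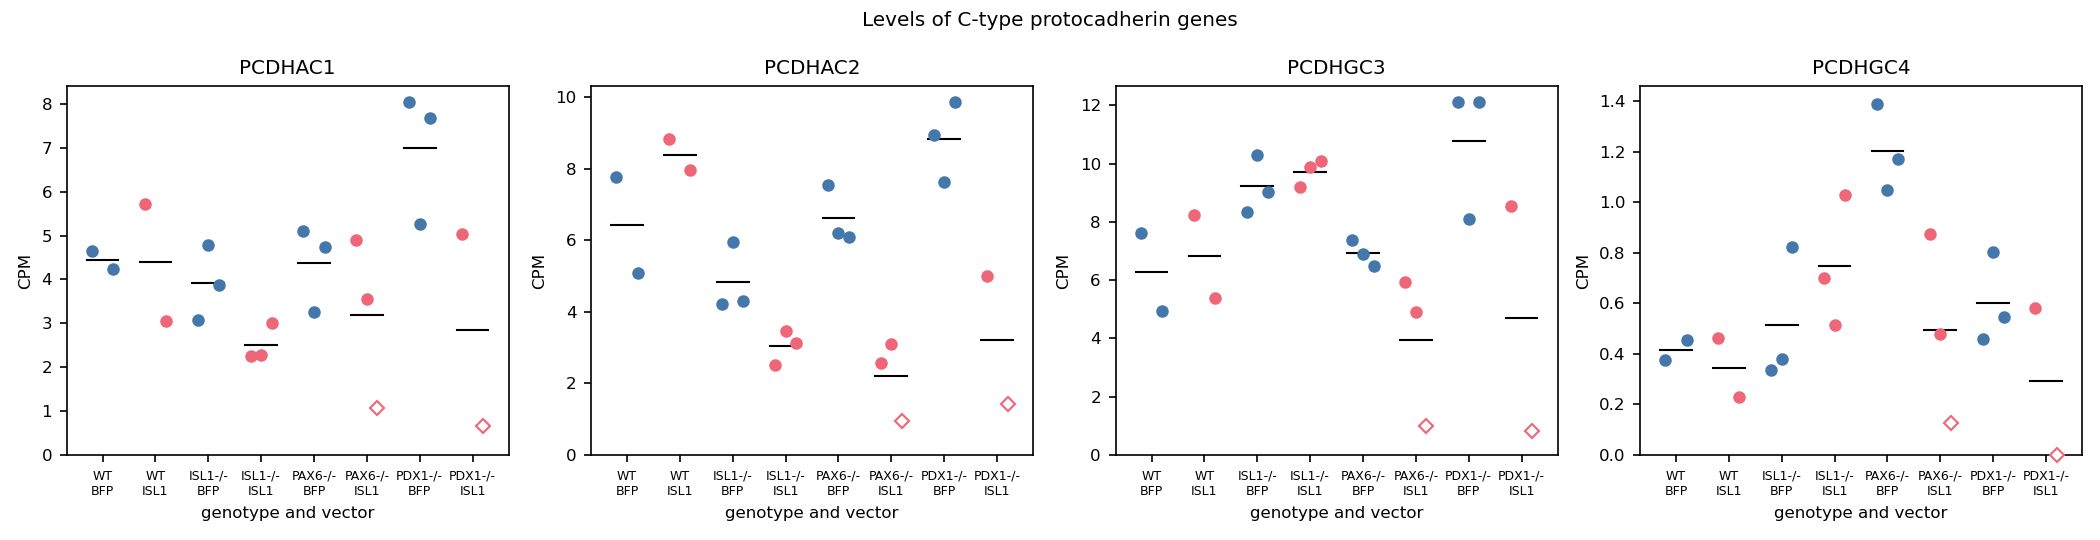
CPM (vertical axes, from 0) of PCDHAC1, PCDHAC2, PCDHGC3 and PCDHGC4 in each library, by genotype and vector, with blue points for the BFP vector, red for the ISL1 vector, open diamonds for PAX6-/- replicate 3 and PDX1-/- replicate 4 of the ISL1 vector, and bars for group means. The red PCDHAC2 points lie below the blue ones in the 3 knockouts and above them in WT.

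PCDHA12, PCDHB5 and PCDHGB4 had the highest level of their arrays per kilobase of exon free of other genes. PCDHA12 stood at 11.8 and 13.4 CPM in WT, 10.5, 10.5 and 10.3 CPM in ISL1-/-, 15.8, 10.4 and 14.3 CPM in PAX6-/- and 12.9, 12.9 and 15.1 CPM in PDX1-/- with the BFP vector. With the ISL1 vector it stood at 15.9 and 12.7 CPM, at 9.22, 8.34 and 8.46 CPM, at 12.1, 9.74 and 5.35 CPM and at 12.1 and 4.27 CPM in the same order. PCDHGB4 stood at 12.9 and 13.2 CPM in WT, 10.3, 13.6 and 13.0 CPM in ISL1-/-, 20.4, 15.6 and 16.5 CPM in PAX6-/- and 21.6, 18.5 and 20.5 CPM in PDX1-/- with the BFP vector, and at 15.7 and 12.4 CPM, at 13.5, 14.0 and 12.5 CPM, at 17.0, 17.2 and 3.1 CPM and at 18.4 and 1.75 CPM with the ISL1 vector. Its PAX6-/- and PDX1-/- BFP vector libraries lay above both WT libraries. Neither gene passed a test in the full fit. PCDHB5 stood at 51.4, 50.2 and 55.7 CPM in PDX1-/- with the BFP vector and, with the ISL1 vector, at 39.7 and 38.0 CPM in WT, 31.2, 29.1 and 29 CPM in ISL1-/-, 69.6, 58.7 and 37.0 CPM in PAX6-/- and 74.9 and 15.3 CPM in PDX1-/-, the lower values of the last 2 groups being those of the 2 low libraries.

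Regulators of the cluster were next. Of 24 regulators of its promoter choice, REST, a repressor of neuronal genes, was lower in PDX1-/- than in WT with the BFP vector (-1.19 ± 0.27, adjusted p = 0.00891), and so was the DNA methyltransferase DNMT3B (-1.71 ± 0.50, 0.0365). None of the 24 was called in ISL1-/- or PAX6-/- with the BFP vector in the full fit, where 5.59%, 5.51% and 9.68% of all genes were called in ISL1-/-, PAX6-/- and PDX1-/-. When the 2 low libraries were left out, 4 were higher and 1 lower in ISL1-/-, 2 and 1 in PAX6-/- and 1 and 5 in PDX1-/-, against 23.5%, 23.5% and 27.6% of all genes, and 6 were higher in ISL1-/- than in PDX1-/-, against 21.7%, and 4 in PAX6-/- than in PDX1-/-, against 16.3%. With the ISL1 vector 4 were then higher and 1 lower in ISL1-/- (19.5% of all genes), 1 was lower in PAX6-/- (12.2%) and none was called in PDX1-/- (6.66%). DNMT1, which maintains methylation, was higher in ISL1-/- than in WT with the ISL1 vector (0.79 ± 0.21, 0.0414). With the ISL1 vector in PDX1-/-, REST (1.45 ± 0.27, 0.00312) and the cohesin subunit SMC3 (0.88 ± 0.28, 0.0473) were higher than with the BFP vector. Without the 2 low libraries REST stayed past the threshold (1.30, 0.00972) and SMC3 did not (0.14, 0.644). REST was higher in ISL1-/- than in PDX1-/- with the BFP vector (1.03 ± 0.25, 0.02). CTCF, which binds the promoter element, was not called in any of the comparisons run. It stood at 128.0 and 131.0 CPM in the 2 low libraries and at 65.8 to 77.7 CPM in the other 19. The summed level of the 24 regulators was 1420 and 1390 CPM in the 2 low libraries and 1710 to 2420 CPM in the other 19.

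Protocadherins outside the cluster were also measured. Of 11 non-clustered protocadherins, PCDH7 was lower in ISL1-/- (-1.59 ± 0.37, adjusted p = 0.0165) and PDX1-/- (-1.38 ± 0.37, 0.0248), PCDH11X (1.72 ± 0.38, 0.0126) and PCDH19 (2.04 ± 0.55, 0.0364) were higher in PAX6-/-, and PCDH17 was higher (0.63 ± 0.18, 0.0333) and PCDH20 lower (-1.67 ± 0.46, 0.0285) in PDX1-/-, each against WT with the BFP vector, which makes 1, 2 and 3 of 11 in ISL1-/-, PAX6-/- and PDX1-/- against 5.59%, 5.51% and 9.68% of all genes. Leaving out the 2 low libraries gave 3, 3 and 5 of the 11, against 23.5%, 23.5% and 27.6%. Against WT with the ISL1 vector, PCDH7 (-1.57 ± 0.37, 0.0246) and PCDH10 (-1.14 ± 0.31, 0.0467) were lower in ISL1-/-, and PCDH10 in PAX6-/- (-1.40 ± 0.31, 0.0155), and 3, 6 and 1 of the 11 were called in ISL1-/-, PAX6-/- and PDX1-/- when the 2 low libraries were left out. None of 19 intracellular partners and proteases was called between a knockout and WT with either vector in the full fit. In the fit without the 2 low libraries 3 were higher and 5 lower in ISL1-/-, 5 and 5 in PAX6-/- and 6 and 4 in PDX1-/- against WT with the BFP vector, where 23.5%, 23.5% and 27.6% of all genes were called. With the ISL1 vector, 1 was then higher and 3 lower in ISL1-/-, 1 and 4 in PAX6-/- and none in PDX1-/-, where 19.5%, 12.2% and 6.66% of all genes were called. Of the genes that flank the cluster on chromosome 5, 19 of 23 were tested and ARAP3 alone was called against WT in the full fit, higher in PAX6-/- with the BFP vector (2.41 ± 0.60, 0.0263). In the fit without the 2 low libraries and with the BFP vector, 3 of the 19 were higher in ISL1-/-, 2 in PAX6-/- and 3 in PDX1-/-, with 1 lower. Of all genes 23.5%, 23.5% and 27.6% were called there. With the ISL1 vector 4 of the 19 were then higher in ISL1-/- and 1 lower in PAX6-/-, where 19.5% and 12.2% of all genes were called. With the ISL1 vector in PDX1-/-, PCDH1 (-1.93 ± 0.47, 0.0157), PCDH17 (-0.74 ± 0.18, 0.0155) and the partner ABI1 (-0.66 ± 0.21, 0.0458) were lower, and ABI1 did not pass without the 2 low libraries (-0.32, 0.221).

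Cell type markers moved with the genotypes as well. Of all genes, 5.59%, 5.51% and 9.68% were called in ISL1-/-, PAX6-/- and PDX1-/- against WT with the BFP vector in the full fit. Of 6 enterochromaffin markers, 4, 1 and 5 were higher in ISL1-/-, PAX6-/- and PDX1-/- than in WT with the BFP vector and none lower, and their summed level was 846.0 to 980.0 CPM in WT, 2160 to 2910 in ISL1-/-, 1310 to 2120 in PAX6-/- and 3580 to 4230 in PDX1-/-. All 4 delta, 4 of 6 alpha and 2 of 6 beta markers were lower in ISL1-/-, with 1 beta marker higher. In PAX6-/- these were 3 delta, 2 alpha and 2 beta markers, and in PDX1-/- 2 delta, 1 alpha and 3 beta markers with 1 beta marker higher. Alpha markers summed to 40400 to 55000 CPM in WT, 626.0 to 678.0 in ISL1-/-, 1100 to 1840 in PAX6-/- and 16700 to 21600 in PDX1-/-. Of 8 neuronal markers, 3 were higher and 1 lower in ISL1-/-, 3 higher in PAX6-/- and 2 higher in PDX1-/-, with sums of 522.0 to 645.0 CPM in WT, 621.0 to 777.0 CPM in PDX1-/-, 467.0 to 836.0 CPM in PAX6-/- and 451.0 to 617.0 CPM in ISL1-/-. Of 8 pan-endocrine markers, 1 was lower in ISL1-/-, none was called in PAX6-/- and 1 was higher and 1 lower in PDX1-/-. The pan-endocrine list holds ISL1 and PAX6 themselves, and the progenitor list holds PDX1, so the edited genes are among the markers counted. None of the progenitor (6), mesenchyme (8), duct (4), or neural crest and glia (4 of 6 tested) markers was called with the BFP vector in the full fit, 2 of 5 endothelial markers were lower in PAX6-/- and in PDX1-/-, and of 4 tested pluripotency markers 1 was higher and 1 lower in PAX6-/-. Mesenchyme sums spread from 101.0 to 1240 CPM with the BFP vector and from 114.0 to 1880 with the ISL1 vector, where the WT libraries had 1630 and 1880 and the others 908.0 or less. In the fit without the 2 low libraries, where 23.5%, 23.5% and 27.6% of all genes were called in ISL1-/-, PAX6-/- and PDX1-/-, 1 duct marker was lower in ISL1-/-, 1 was higher and 2 lower in PAX6-/-, and 1 was higher and 3 lower in PDX1-/-. In that fit 1 progenitor marker was higher in PAX6-/-, 1 was higher and 1 lower in PDX1-/-, 1 mesenchyme marker was lower in PDX1-/- and 1 neural crest and glia marker was higher in ISL1-/-. Against WT with the ISL1 vector, that fit called 5 mesenchyme markers lower and 1 higher in ISL1-/-, where 19.5% of all genes were called.

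Markers also differed between the vectors within a genotype. Of all genes, 0.027%, 0.382%, 0.355% and 12.5% were called between the vectors in WT, ISL1-/-, PAX6-/- and PDX1-/- in the full fit. Without the 2 low libraries the shares were 4.93% in ISL1-/- and 4.97% in PAX6-/-. In PDX1-/- with the ISL1 vector, 3 beta, 2 alpha and 3 delta markers were higher than with the BFP vector, 4 enterochromaffin, 2 pan-endocrine and 1 beta markers were lower, 2 duct markers and 1 progenitor and 1 pluripotency marker were higher, and 1 neuronal marker was lower. With the 2 low libraries left out, 3 delta, 2 progenitor, 1 alpha, 1 duct and 1 pluripotency markers were higher there, and 6 enterochromaffin, 5 pan-endocrine, 4 neuronal and 1 beta markers were lower. In ISL1-/- 1 enterochromaffin marker was lower with the ISL1 vector (5 without the 2 low libraries), 1 alpha, 1 delta, 1 neuronal and 1 progenitor marker were higher, and so were 2 pluripotency markers. In PAX6-/- 1 enterochromaffin (5 without the 2 low libraries) and 1 beta marker were lower and 1 delta marker was higher. No marker list had a call in WT with all libraries. Enterochromaffin markers summed to 556.0 to 591.0 CPM in WT, 997.0 to 1270 in ISL1-/-, 597.0 to 1270 in PAX6-/- and 1270 to 1420 in PDX1-/- with the ISL1 vector. The part of the marker shifts in the protocadherin differences, between genotypes or vectors, was not tested.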

How the data were processed

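The authors deposited 1 table of raw counts per gene, made with STAR 2.7.11b and featureCounts 2.1.1 on GRCh38, per the submitters' processing notes; strand setting and handling of reads on several genes are not given in the sources used here. Libraries used SMART-Seq v4, per the labels' protocols. The entry of ANK2, broken over 3 lines, was left out, which left 62699 genes.

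Each of the 21 libraries was assigned to its group and replicate by its labels. Genes were kept by filterByExpr (minimum count 10, minimum total 15), which left 25884. They were fitted with edgeR 4.0.16 (TMM, quasi-likelihood F test, R 4.3.3) in 1 model over 21 libraries with a coefficient per group, and p-values were Benjamini-Hochberg adjusted over all 25884, with calls at an adjusted p under 0.05. The common biological coefficient of variation was 0.334. Fold changes are log2 with edgeR's prior count, and CPM use TMM library sizes. Totals of 36807615 to 60199880 counts leave the 42 genes tested limited by the spread between libraries rather than by the depth, except those under 1 CPM. The scripts were tested on simulated data. Alternatives were DESeq2 1.42.0, limma 3.58.1 voom with sample weights, other size factors, no filter, the compared groups only, replicate blocks and leaving out each library. Leaving out both low libraries was added after seeing the data.

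Level per length used exon bases free of other genes on either strand; the plan named the same strand, and the counting check changed it. Genes were named by rule: the highest level per length in each array, the C-type genes and every gene called. PCDHGB7, PCDHGB6, PCDHA4, PCDHB2, PCDHB9, PCDHB10, PCDHB12, PCDHB13, PCDHB15 and PCDHB16 were added after their values were seen. The genes and all lists were chosen with earlier results of these data known. Deviations from the group mean, over all genes tested, correlated by 0.155, 0.391 and 0.333 between same-numbered PAX6-/- libraries of the 2 vectors. Over the 42 clustered protocadherins these values were 0.042, 0.246 and 0.138. In ISL1-/- they were 0.183, 0.099 and 0.293 over all genes and -0.009, 0.205 and 0.079 over the 42. Between other groups they went both ways. For ISL1 vector replicate 2 they were 0.418 between PAX6-/- and PDX1-/- and -0.284 between PDX1-/- and WT. Whether equal numbers mark libraries made together is not given.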

Additional observations from a re-analysis of the deposited data

Results flagged for a closer look

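In 11 cases every ISL1 vector library lay on one side of the BFP vector libraries in WT and on the other side in a knockout. They were 4 of 42 genes in ISL1-/- (9.52%, against 2.19% of all genes), 4 in PAX6-/- (9.52%, against 1.95%) and 3 in PDX1-/- (7.14%, against 5.68%), as a description. The differences of vector effects given here are knockout minus WT on the log2 scale, and none passed the test of that difference (edgeR). For PCDHAC2 they were -1.05 in ISL1-/- (adjusted p = 1.0), -1.96 in PAX6-/- (0.894) and -1.83 in PDX1-/- (0.188). PCDHA13 had -1.33 in ISL1-/- (1.0) and -1.62 in PAX6-/- (0.894), and PCDHA5 had 0.7 in ISL1-/- (1.0). PCDHB16 had -1.23 in PAX6-/- (0.894) and -1.59 in PDX1-/- (0.333). PCDHB14 had -0.54 in ISL1-/- (1.0) and -1.3 in PDX1-/- (0.247), and PCDHGB6 had -1.29 in PAX6-/- (0.894). The values in PAX6-/- and PDX1-/- include the 2 low libraries, and all 11 share the 4 WT libraries.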

How the results depend on the processing

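Counts of the clustered protocadherins called follow, in the order ISL1-/-, PAX6-/- and PDX1-/- against WT with the BFP vector (2, 1, 1 in the full fit), the same with the ISL1 vector (0, 1, 0), ISL1-/- against PAX6-/- (2) and against PDX1-/- (4), PAX6-/- against PDX1-/- (1), the vector in ISL1-/-, PAX6-/- and PDX1-/- (0, 0, 2) and the joint test (5). Fitting only the groups compared gave 5, 7, 15, then 9, 0, 0, then 5, 20, 5, then 1, 0, 0, then 23. Voom with sample weights gave 5, 14, 19, then 11, 4, 0, then 14, 26, 7, then 2, 7, 0, then 27, and 1 for the difference of vector effects between PAX6-/- and WT. Leaving out both low libraries gave 7, 14, 17, then 10, 3, 3, then 9, 21, 6, then 1, 2, 1, then 23. DESeq2 gave 2 and 5 in PAX6-/- and PDX1-/- with the BFP vector, 2 and 2 in ISL1-/- and PAX6-/- with the ISL1 vector, 1 and 6 for the vector in PAX6-/- and PDX1-/-, and 9 in the joint test. Without a filter on low counts there were 1, 0 and 2 with the BFP vector and 2 in ISL1-/- with the ISL1 vector. DESeq2's size factors moved no count by over 1.5 times. Shares of all genes called are given above for the full fit and the fit without both low libraries. They are not given for the other settings here and below. Counts in those settings are therefore not read as a result about the protocadherins.

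The replicate block by the description's number, which takes up the only library numbered 4, gave 4 in PAX6-/- and 11 in PDX1-/- with the BFP vector, 3 in ISL1-/- with the ISL1 vector, 4, 12 and 5 between knockouts, 2 and 0 for the vector in PAX6-/- and PDX1-/-, and 14 in the joint test. The replicate block by the title's number gave 1 and 0 in ISL1-/- and PAX6-/- with the BFP vector. Leaving out 1 library at a time gave 0 to 3, 0 to 4 and 0 to 10, then 0 to 4, 0 to 1 and 0 to 22, then 1 to 4, 2 to 12 and 0 to 5, then 0 to 2 and 0 to 31 for the vector in PAX6-/- and PDX1-/-, 0 to 27 for the difference of vector effects between PDX1-/- and WT, and 3 to 13 in the joint test. Counts of 22, 31 and 27 came without PDX1-/- ISL1 vector replicate 2, and each other upper end above the full fit came without replicate 4 of that group. Apart from fits with fewer libraries, the cause of these shifts was not tested.

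By whole exon length PCDHA12 had 2.12 and PCDHGB4 2.04 CPM per kb. The median correlation of genes between libraries of 1 group was 0.965 by Pearson, and 0.897 by Spearman for PCDHG alone. Over 96 pairs of a named gene and a comparison, 14 were called, all 14 kept their sign in each alternative run and 3 kept the call in each. Of 1465 values under alternatives, 6 reversed the sign, in 3 pairs that were not called. PCDHB5 in PDX1-/- against WT with the ISL1 vector was -0.15 by voom, -1.36 without PDX1-/- ISL1 vector replicate 2 and 0.96 without both low libraries, and PCDHB11 was -0.72 and 1.37 in the last 2 settings. PCDHB5 between vectors in PDX1-/- was 0.52 with the replicate block, 0.52 without replicate 4, -1.79 without replicate 2 and 0.54 without both low libraries.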
